A study of Mus musculus with 23 samples.

Results

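The 37 genes described here encode the contractile filaments, the calcium handling and the fuel supply of adult skeletal muscle, and they were followed in mouse medulloblastomas grown as allografts in nude mice. Members were all probe sets of the array whose annotated gene symbol is on the list. All 37 genes had a probe set, 56 of the 45101 probe sets on the array, against 18193 genes with a single symbol in the whole table. For a gene with several probe sets, the lead probe set is the one with the highest mean log2 signal over the arrays, and values are for it unless another is named.

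RNA came from whole flash-frozen tumours, 1 Affymetrix array per sample and 23 arrays in all. Every tumour, vehicle-treated ones included, was grown in Harlan nu/nu mice, which lack a working thymus, under the skin of the right flank, from dissociated cells of Ptch+/-HIC+/- mouse medulloblastoma. Patched is the receptor that holds the Hedgehog pathway off, and NVP-LDE225 blocks Smoothened, the transducer that patched restrains. Tumours labelled resistant had been treated with NVP-LDE225 at 160 mg/kg (3 arrays) or 40 mg/kg (3 arrays). Tumours labelled sensitive received 40 mg/kg and were taken at 4, 8, 24 or 48 h (3 arrays each). The controls were vehicle-treated sensitive tumours, 2 arrays at 4 h and 3 arrays with no time given. The ages of the mice are not given in the sources used here. The labels do not say whether arrays of a group came from separate mice, so a p-value here speaks for the spread of the arrays, which may be technical. For 6 of the 12 short-term drug arrays the source name says resistant while the other labels say sensitive with a dose and time. Groups follow the sample descriptions. Graft and host are both mouse, so these probe sets cannot tell tumour RNA from host RNA.

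In a muscle fibre, myosin heads of the thick filament pull on actin of the thin filament when calcium released from the sarcoplasmic reticulum moves the troponin switch. Fast and slow fibres use different isoforms of many of these proteins, so the isoforms present reflect the fibre types in a sample. Z discs anchor the filaments, titin spans the sarcomere, and creatine kinase, glycogen breakdown and myoglobin keep the motor supplied. Flank skin in the mouse lies over the panniculus carnosus, a thin sheet of skeletal muscle, and over the muscles of the body wall.

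Promoter sequences are shown for 6 members because the fast myosin genes moved together on most arrays and parted on some, while Cacna1s went its own way. Each runs from 250 bases before to 50 bases after the gene start, from RefSeq on mouse build GRCm38.p6, 5′ to 3′. Capitals mark the E-box CANNTG and its form CAGCTG on either strand, TATAAA on the gene's strand, the MEF2 site and the core of the serum response element. CAGCTG is by its letters also a CANNTG.
Myh2 (chr11:67170777-67171076, plus strand): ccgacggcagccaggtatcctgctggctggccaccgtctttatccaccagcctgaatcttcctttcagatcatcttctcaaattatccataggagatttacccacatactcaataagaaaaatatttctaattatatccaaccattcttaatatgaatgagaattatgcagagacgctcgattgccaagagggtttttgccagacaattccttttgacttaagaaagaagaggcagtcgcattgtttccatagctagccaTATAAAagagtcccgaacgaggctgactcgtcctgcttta
Myh1 (chr11:67199852-67200151, plus strand): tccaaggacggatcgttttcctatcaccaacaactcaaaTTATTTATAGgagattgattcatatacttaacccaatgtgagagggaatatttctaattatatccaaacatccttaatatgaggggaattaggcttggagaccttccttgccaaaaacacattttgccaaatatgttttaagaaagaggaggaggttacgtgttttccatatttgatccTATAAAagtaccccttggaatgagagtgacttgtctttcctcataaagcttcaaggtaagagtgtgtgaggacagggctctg
Myh4 (chr11:67237562-67237861, plus strand): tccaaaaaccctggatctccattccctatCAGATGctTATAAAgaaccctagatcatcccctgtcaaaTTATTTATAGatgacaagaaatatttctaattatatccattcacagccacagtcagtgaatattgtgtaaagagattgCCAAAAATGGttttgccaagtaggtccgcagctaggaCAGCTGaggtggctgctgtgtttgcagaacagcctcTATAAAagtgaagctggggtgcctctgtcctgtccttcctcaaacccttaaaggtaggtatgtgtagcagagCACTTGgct
Ckm (chr7:19410844-19411143, plus strand): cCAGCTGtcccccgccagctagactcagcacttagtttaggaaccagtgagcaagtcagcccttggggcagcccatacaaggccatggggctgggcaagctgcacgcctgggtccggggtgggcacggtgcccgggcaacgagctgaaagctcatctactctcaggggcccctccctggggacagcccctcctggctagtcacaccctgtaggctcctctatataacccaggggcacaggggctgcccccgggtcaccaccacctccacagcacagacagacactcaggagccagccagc
Tnni1 (chr1:135799171-135799470, plus strand): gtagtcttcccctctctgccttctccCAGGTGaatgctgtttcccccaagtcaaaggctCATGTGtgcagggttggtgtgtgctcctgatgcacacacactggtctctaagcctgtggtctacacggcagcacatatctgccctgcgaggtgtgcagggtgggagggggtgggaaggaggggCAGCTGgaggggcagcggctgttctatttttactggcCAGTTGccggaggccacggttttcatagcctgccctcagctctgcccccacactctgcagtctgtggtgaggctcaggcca
Cacna1s (chr1:136052561-136052860, plus strand): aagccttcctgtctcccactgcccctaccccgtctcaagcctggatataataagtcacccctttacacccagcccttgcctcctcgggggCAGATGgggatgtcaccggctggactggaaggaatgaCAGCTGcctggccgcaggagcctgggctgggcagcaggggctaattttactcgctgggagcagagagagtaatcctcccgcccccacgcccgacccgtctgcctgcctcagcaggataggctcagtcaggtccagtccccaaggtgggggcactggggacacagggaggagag
The starts of Myh2 and Myh1 lie 29075 bases apart, and those of Myh1 and Myh4 lie 37710 bases apart, on chromosome 11. All 3 fast myosin promoters share the 20-base run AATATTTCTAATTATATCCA, which begins 130, 165 and 163 bases before the start of Myh2, Myh1 and Myh4. In the table, 28 of the 37 members had an entry, with 33 promoters. Of these 33, 57.6% held CAGCTG, against 16.3% of all 32851 promoters of the same length. CANNTG was in 84.8% of members' promoters and 72.3% of all promoters, and CACCTG or its reverse complement CAGGTG in 24.2% and 20.2%. The MEF2 site was in 18.2% against 3.19%, the serum response element core in 15.2% against 1.63%, and TATAAA in 15.2% against 8.32%. A match describes the letters in this window and is not evidence of a bound site.

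The amount of muscle signal differed more between arrays of a group than most groups differed from each other. The mean log2(signal + 16) of the 37 lead probe sets was 5.23, 7.47 and 4.98 on vehicle replicates 1, 2 and 3. It was 6.04 and 6.50 on the 4 h vehicle arrays, 5.66 to 6.47 on the 4 h drug arrays and 5.69 to 6.66 on the 8 h drug arrays. Vehicle replicate 2 was therefore the highest of the vehicle arrays, while vehicle replicates 1 and 3 lay below every 4 h and 8 h array. At 24 h the mean was 7.88, 7.90 and 8.28, above every vehicle array. At 48 h it was 7.08 on replicate 1, 8.37 on replicate 3 and 5.37 on replicate 4, so that this group held both the highest value of the series and one near its lowest. In resistant tumours it was 5.66, 5.77 and 5.24 at 160 mg/kg and 6.82, 5.12 and 5.03 at 40 mg/kg. All 56 probe sets of the 37 genes together held 0.008% of all signal where they were lowest, vehicle replicate 3. They held 0.24% where they were highest, 48 h replicate 3. Between 12 and 36 of the 37 lead probe sets lay above their array's 40th percentile of signal.

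**Figure D1:**
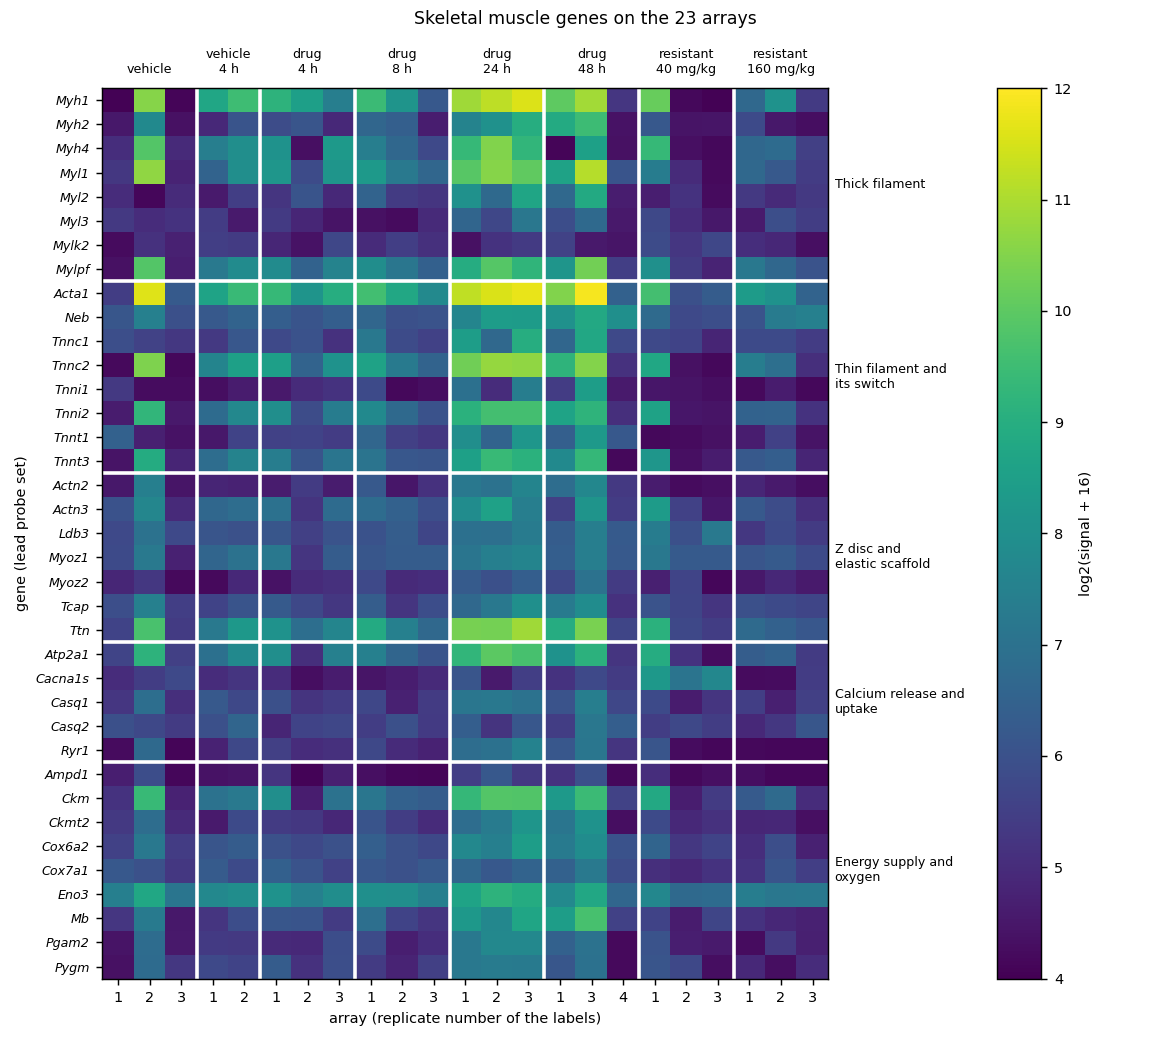
Heat map of log2(MAS5 signal + 16) for the lead probe set of each of the 37 genes (rows, grouped by role) on each of the 23 arrays (columns, by group and replicate number). Vehicle replicate 2, the 24 h arrays and 48 h replicates 1 and 3 are bright for most rows, while Cacna1s is bright on the 3 resistant arrays at 40 mg/kg.

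The 24 h comparison asks which of these genes differed after a day of drug. At 24 h, 39 of the 53 member probe sets tested were higher than in vehicle tumours and 0 were lower, at an adjusted p under 0.05 in limma. Over all 35069 probe sets tested, 29.0% were called in either direction and 16.6% were called higher, against 73.6% of the members. The members' median log2 change was 1.78, beside 0.10 over all probe sets tested. In tissue pieces, fewer or more muscle fibres and less or more RNA per fibre cannot be told apart. By lead probe set, 28 of 37 genes rose: 6 of 8 thick filament genes, 8 of 8 thin filament genes, 4 of 7 Z disc and scaffold genes, 3 of 5 calcium genes and 7 of 9 energy genes. The groups did not overlap, with every 24 h array above every vehicle array, for 23 of the 53, beside 25.3% of all probe sets tested.

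Among thick filament genes, Myh1, the heavy chain of fast type IIx fibres, had a signal of 0.6, 1480.4 and 1.3 on the vehicle arrays, 409.6 and 722 on the 4 h vehicle arrays, 559.9, 353 and 154 at 4 h, 686, 269 and 57.1 at 8 h, 1836, 2332 and 3047 at 24 h, and 1014, 1885 and 22.5 at 48 h. On the resistant arrays Myh1 read 89.1, 256 and 24.8 at 160 mg/kg and 1106, 2.1 and 0.4 at 40 mg/kg. All 3 arrays at 24 h exceeded every other array except 48 h replicate 3, which lay just above the lowest of them. The log2 change at 24 h against vehicle was 4.97 ± 1.53 (SE, n = 3 arrays each), with a limma adjusted p of 0.016.

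Myh4, the heavy chain of the fastest fibres, type IIb, had a signal of 17.1, 921 and 14.9 on the vehicle arrays, 156 and 234 on the 4 h vehicle arrays, 254, 4.3 and 303 at 4 h, 154, 86.0 and 37.9 at 8 h, 639, 1415 and 604 at 24 h, and 1.2, 361 and 4.7 at 48 h. Its values on resistant arrays were 85.8, 96.4 and 29.6 at 160 mg/kg and 645, 3.9 and 2.0 at 40 mg/kg. Vehicle replicate 2 lay inside the 24 h range, and the log2 change of 3.08 ± 1.30 (SE) at 24 h did not pass the test (limma adjusted p = 0.080). Without vehicle replicate 2 it was 4.71, with a limma adjusted p of 0.0089.

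Myh2, the heavy chain of fast oxidative type IIa fibres, read 173, 248 and 486 at 24 h, against 6.9, 206 and 4.4 in vehicle tumours, and rose by 2.64 ± 0.96 on the log2 scale (SE, limma adjusted p = 0.041). On 48 h replicate 1, Myh1 was at 1014 and Myh2 at 462 while Myh4 was at 1.2, and 4 h replicate 2 likewise paired Myh1 at 353 with Myh4 at 4.3. The fast light chains followed Myh1. Mylpf, the fast regulatory light chain, had a signal of 4.6, 914 and 9.6 on the vehicle arrays, 133 and 217 on the 4 h vehicle arrays, 214, 75.9 and 175 at 4 h, 226, 127 and 72.5 at 8 h, 479.5, 943 and 588 at 24 h, and 269.6, 1233 and 28.6 at 48 h. Resistant tumours had 129.9, 85.8 and 50.8 at 160 mg/kg and 240.0, 26.4 and 11.6 at 40 mg/kg. Mylpf rose by 3.06 ± 1.07 on the log2 scale at 24 h (SE, limma adjusted p = 0.034), and Myl1, the fast essential light chain, by 3.25 ± 1.15 (SE, limma adjusted p = 0.037), although Mylpf on vehicle replicate 2 lay within the 24 h range and Myl1, at 1604 there, lay above it.

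The slow light chain gave a different picture. Myl2, the regulatory light chain of slow fibres and heart ventricle, had a signal of 16.1, 1.5 and 15.5 on the vehicle arrays, 8.1 and 28.3 on the 4 h vehicle arrays, 22.0, 51.3 and 14.5 at 4 h, 78.5, 25.8 and 21.3 at 8 h, 251, 90.4 and 404 at 24 h, and 88.7, 445 and 8.7 at 48 h. Resistant tumours had 24.4, 14.9 and 24.1 at 160 mg/kg and 9.3, 20.2 and 2.9 at 40 mg/kg. Vehicle replicate 2, high for the fast chains, had the lowest Myl2 signal of all 23 arrays. Every 24 h array was above every vehicle array, with a log2 change of 3.13 ± 0.66 (SE) and a limma adjusted p of 0.00075, the smallest of the 37 genes in this comparison. Myl3, the slow essential light chain, also rose, by 1.31 on the log2 scale, while Mylk2, the muscle myosin light chain kinase, stayed between 3.0 and 40.5 on all arrays and changed by 0.26 (limma adjusted p = 0.65).

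In the thin filament all 8 genes rose at 24 h. Acta1, the skeletal muscle actin, had a signal of 27.8, 3128 and 61.5 on the vehicle arrays, 381 and 669 on the 4 h vehicle arrays, 642, 269 and 488 at 4 h, 749.8, 426 and 200.3 at 8 h, 2390.1, 2956 and 3389.8 at 24 h, and 1410.2, 3789 and 73.1 at 48 h. Resistant tumours had 319, 253 and 78.5 at 160 mg/kg and 761, 46.5 and 65.2 at 40 mg/kg. Vehicle replicate 2 lay within the 24 h range, while the other vehicle arrays were far below it, and the log2 change was 3.72 ± 1.21 (SE, limma adjusted p = 0.022).

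The troponin switch has a calcium sensor, an inhibitor and a tropomyosin-binding subunit, each in a fast and a slow form. Tnnc2, the fast calcium sensor, had a signal of 2.6, 1397 and 2.0 on the vehicle arrays, 181 and 356 on the 4 h vehicle arrays, 354, 76.9 and 255 at 4 h, 375, 137 and 77.8 at 8 h, 1204, 1703 and 1600.2 at 24 h, and 574, 1457 and 19.2 at 48 h. In resistant tumours it had 152, 106 and 18 at 160 mg/kg and 416, 4.6 and 2.2 at 40 mg/kg. Every 24 h array but 1 exceeded vehicle replicate 2, and the log2 change at 24 h was 4.27 ± 1.35 (SE, limma adjusted p = 0.019).

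Tnnc1, the slow and cardiac calcium sensor, had a signal of 44.7, 31.5 and 23 on the vehicle arrays, 24.0 and 55.4 on the 4 h vehicle arrays, 37.9, 49.1 and 18.9 at 4 h, 132, 40.5 and 31.1 at 8 h, 338, 87.5 and 491 at 24 h, and 84.5, 433 and 38.4 at 48 h. Resistant tumours had 40.1, 40.0 and 26.7 at 160 mg/kg and 38.4, 33.2 and 12.6 at 40 mg/kg. The 24 h and vehicle groups did not overlap (log2 change 2.46 ± 0.58, SE, limma adjusted p = 0.0022). Tnni1, the slow inhibitory subunit, had a signal of 24.3, 3.1 and 3.1 on the vehicle arrays, 3.6 and 8.4 on the 4 h vehicle arrays, 7.5, 15.6 and 20.0 at 4 h, 39.6, 2.2 and 3.5 at 8 h, 109, 16.3 and 152 at 24 h, and 26.5, 334 and 8.0 at 48 h. Resistant tumours had 2.3, 8.6 and 2.1 at 160 mg/kg and 6.3, 5.3 and 3.6 at 40 mg/kg. Tnni1 rose by 1.84 ± 0.67 on the log2 scale (SE, limma adjusted p = 0.040), with 24 h replicate 2 below vehicle replicate 1. The remaining subunits rose too: the fast Tnni2 and Tnnt3 by 3.31 and 2.96, the slow Tnnt1 by 2.38, and Neb, nebulin, the ruler of the thin filament, by 1.62 on the log2 scale.

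Among Z disc and scaffold genes, Ttn (titin) rose by 3.63 ± 1.02 on the log2 scale at 24 h (SE, limma adjusted p = 0.0086). Actn2, the α-actinin of all fibres, rose by 1.80, and the calcineurin-binding Z disc proteins Myoz1 of fast and Myoz2 of slow fibres rose by 1.47 and 1.44. Ldb3, a Z disc scaffold protein, had a signal of 38.6, 113 and 38.9 on the vehicle arrays, 53.6 and 47.3 on the 4 h vehicle arrays, 54.7, 29.6 and 50 at 4 h, 48.9, 66.1 and 34.7 at 8 h, 109, 104 and 145 at 24 h, and 65.1, 154 and 60.7 at 48 h. Resistant tumours had 23.6, 39.3 and 26.1 at 160 mg/kg and 147, 46.6 and 134 at 40 mg/kg. Its lead probe set changed by 0.88 ± 0.36 (SE) at 24 h and did not pass (limma adjusted p = 0.067), while a second probe set of the gene rose by 1.90 (limma adjusted p = 0.024) and the remaining one changed by 0.14 (limma adjusted p = 0.81). Actn3, the α-actinin of fast fibres, and Tcap, which caps titin at the Z disc, had log2 changes of 1.73 and 1.01 with limma adjusted p of 0.099 and 0.16.

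For calcium, Atp2a1, the fast fibre pump that returns calcium to the sarcoplasmic reticulum, had a signal of 33.9, 557 and 29.8 on the vehicle arrays, 108 and 208 on the 4 h vehicle arrays, 229, 17.8 and 164 at 4 h, 165, 81.9 and 52.2 at 8 h, 599.5, 986 and 805 at 24 h, and 255, 551 and 21.4 at 48 h. Resistant tumours had 65.8, 75.2 and 26.2 at 160 mg/kg and 479, 19.7 and 3.1 at 40 mg/kg. All 24 h arrays were above all vehicle arrays (log2 change 2.86 ± 1.02, SE, limma adjusted p = 0.037). Ryr1, the release channel, rose by 2.11, and Casq1, the fast fibre calcium store protein, by 1.38. Casq2, the slow and cardiac store protein, and Cacna1s, the voltage sensor of the fibre membrane, had log2 changes of 0.22 and -0.03 with limma adjusted p of 0.72 and 0.97.

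Among energy genes, Ckm, muscle creatine kinase, had a signal of 19.7, 649.9 and 11.3 on the vehicle arrays, 114 and 134 on the 4 h vehicle arrays, 231, 8.7 and 112 at 4 h, 124, 72.9 and 63.6 at 8 h, 632, 918 and 884 at 24 h, and 299.9, 689 and 31.8 at 48 h. Resistant tumours had 60.6, 92.4 and 16.4 at 160 mg/kg and 442, 8.8 and 26.3 at 40 mg/kg. Vehicle replicate 2 was just above the lowest 24 h array, and the log2 change was 3.24 ± 1.06 (SE, limma adjusted p = 0.023). Pygm, the enzyme that opens muscle glycogen, had a signal of 4.5, 94.9 and 23.2 on the vehicle arrays, 38.2 and 32.8 on the 4 h vehicle arrays, 65.0, 19.0 and 44.5 at 4 h, 25.6, 11.5 and 29.9 at 8 h, 131, 146 and 137 at 24 h, and 54.1, 111 and 2.5 at 48 h. Resistant tumours had 14.0, 3.6 and 16.5 at 160 mg/kg and 52.7, 37.7 and 3.6 at 40 mg/kg. For Pygm every 24 h array exceeded every array of the other groups (log2 change against vehicle 1.78 ± 0.57, SE, limma adjusted p = 0.020).

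The other energy genes that rose at 24 h were Mb (myoglobin, 2.53), Pgam2 (the muscle phosphoglycerate mutase, 2.30), Cox6a2 (a muscle subunit of cytochrome c oxidase, 1.82), Ckmt2 (mitochondrial creatine kinase, 1.74) and Eno3 (the muscle enolase, 1.14 on the log2 scale). Cox7a1, another muscle subunit of cytochrome c oxidase, and Ampd1, the AMP deaminase of muscle, had log2 changes of 0.63 and 0.78 and did not pass (limma adjusted p 0.14 and 0.18). Thus the 9 lead probe sets without a call at 24 h were those of Myh4, Mylk2, Actn3, Ldb3, Tcap, Cacna1s, Casq2, Cox7a1 and Ampd1.

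**Figure D2:**
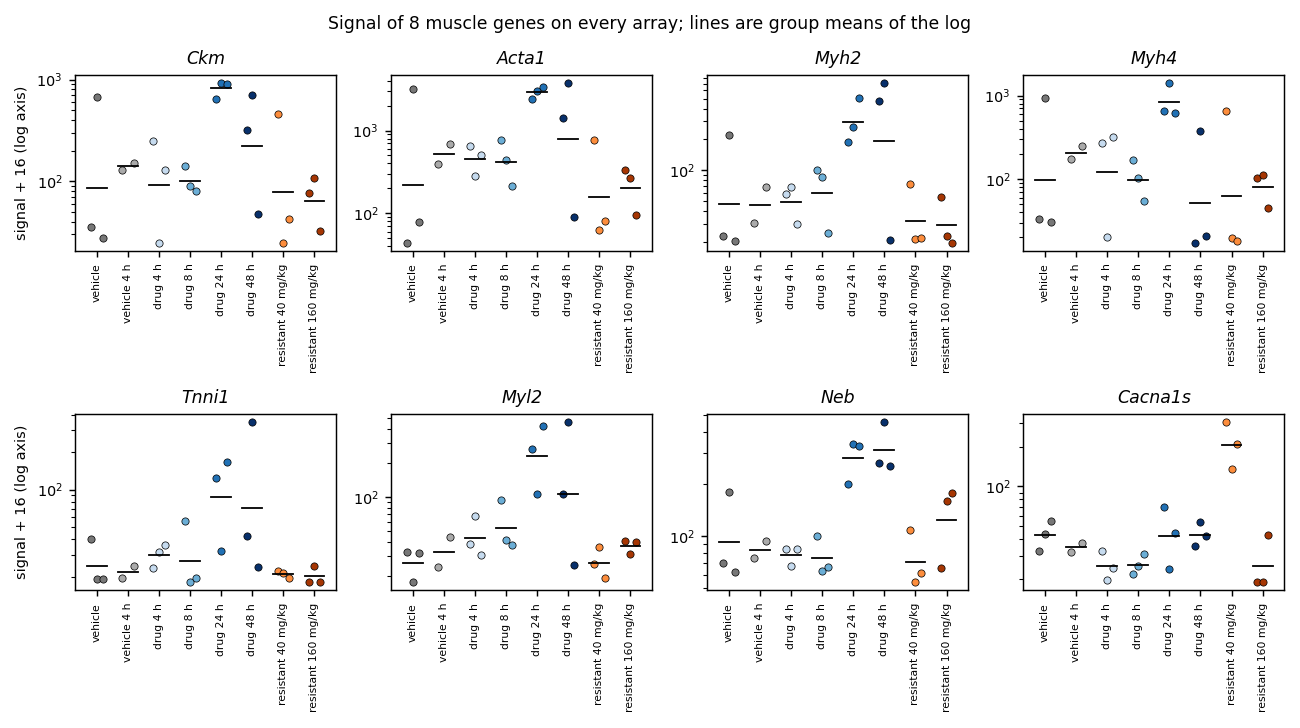
Signal + 16 (log axis) of 8 genes on each of the 23 arrays (points), by group, with lines at the group mean of the log values. Ckm, Acta1, Myh2 and Myh4 have 1 vehicle array among or near the 24 h arrays, Tnni1 and Myl2 are low on that array, and Cacna1s is high on the 3 resistant arrays at 40 mg/kg, which read 292, 119 and 192.

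How many genes passed depended on single vehicle arrays, of which 1 of the 3 was rich in fast fibre signal. Without vehicle replicate 2, 42 member probe sets were higher at 24 h, and by lead probe set 31 of 37 genes, with all 12 fast and 4 of 7 slow isoform genes. Without vehicle replicate 1, 15 probe sets were higher, with 0 of 12 fast and 5 of 7 slow isoform genes by lead probe set. Without vehicle replicate 3, 10 were higher, with 0 fast and 3 slow. Leaving out 24 h replicate 1, 2 or 3 left 27, 24 and 20 probe sets, with 4, 1 and 3 fast and 4, 6 and 4 slow genes. Myl2, Tnnc1, Tnnt1, Neb, Cox6a2 and Pgam2 passed the test whichever of the 6 arrays was left out, while Ckm, Acta1, Mylpf, Myh1, Tnnc2, Atp2a1, Pygm and Tnni1 each lost the call without vehicle replicate 3. With the 4 h vehicle arrays as the control instead, an alternative added once the data had been seen, 15 member probe sets were higher at 24 h, among the leads 0 of the 12 fast and 5 of the 7 slow isoform genes. There Myh1 had a log2 change of 2.08 and Tnnc2 of 2.47 (limma adjusted p 0.44 and 0.27). With all 5 vehicle arrays as the control, 39 were called. The share of all probe sets called under each omission or control is not given here. These counts therefore do not separate the muscle genes from a change over the whole array.

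**Figure D3:**
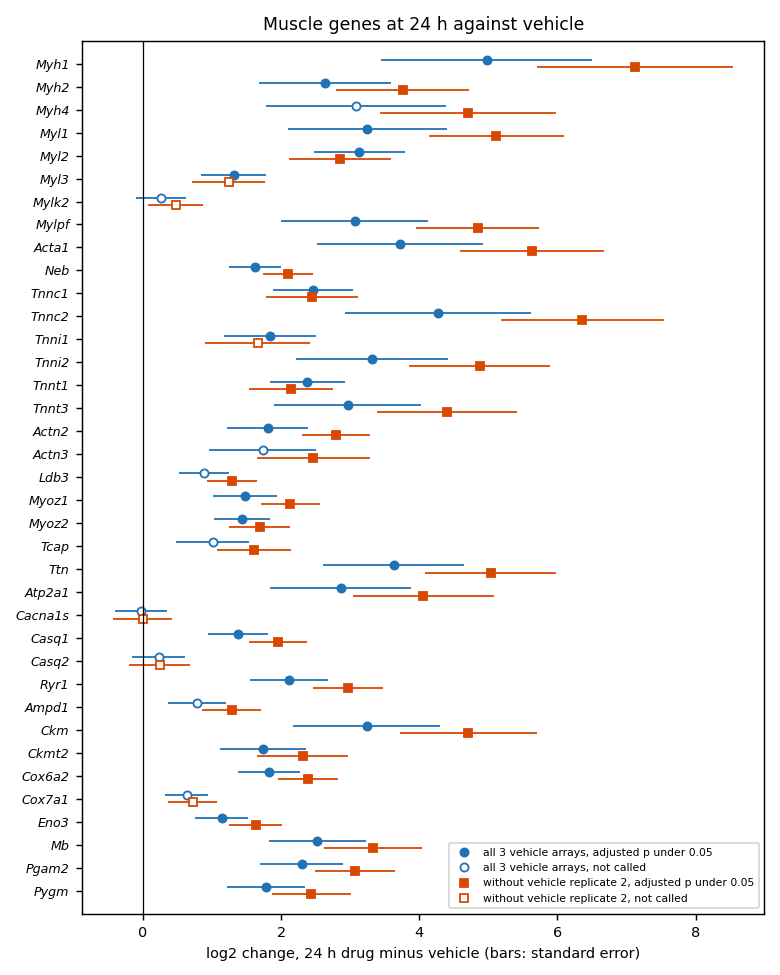
Log2 change of each gene's lead probe set at 24 h against vehicle (x axis), with bars for the standard error, using all 3 vehicle arrays (circles) or leaving out vehicle replicate 2 (squares). Filled symbols mark an adjusted p under 0.05; most genes of the fast isoform list shift to the right without that array, Myh4 to 4.71, while Myl2, Tnnc1 and Tnni1 shift little.

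The balance of fast and slow isoforms differed between arrays, within groups too. On a scale of the mean log2 signal of a list minus its mean over the 23 arrays, the 12 fast isoform genes stood at 1.92, 2.52 and 2.28 on the 24 h arrays and at -1.97, 2.12 and -2.18 on the vehicle arrays. The 7 slow isoform genes stood at 1.70, 0.43 and 2.03 on the 24 h arrays and at 0.01, -0.59 and -0.73 on the vehicle arrays. Fast signal was thus high on vehicle replicate 2 and slow signal was not. Of the fast isoform genes 10 of 12 rose at 24 h, a count that was 0 without vehicle replicate 1 or 3, and of the slow ones 6 of 7, which was 3 to 6 without any 1 array. 24 h replicate 2 had the highest fast value of the series and the lowest slow value of the 24 h arrays. Slow minus fast was -0.21, -2.09 and -0.24 on the 24 h arrays and 1.98, -2.71 and 1.45 on the vehicle arrays, so 24 h replicate 2 lay nearer to vehicle replicate 2 than to the other 24 h arrays. 48 h replicate 3 was high for both, at 2.39 for fast and 2.37 for slow genes, and resistant replicate 1 at 40 mg/kg stood at 1.17 and -0.55.

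**Figure D4:**
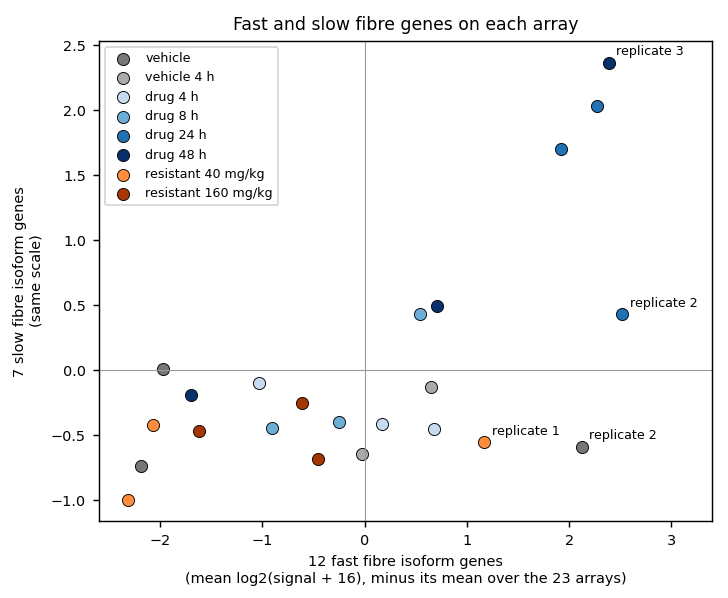
Mean log2(signal + 16) of the 12 fast isoform genes (x axis) and the 7 slow isoform genes (y axis) on each of the 23 arrays, each minus its mean over the arrays, coloured by group. Vehicle replicate 2, at 2.12 on the x axis, and resistant 40 mg/kg replicate 1, at 1.17, lie below the 24 h arrays on the y axis, and 48 h replicate 3 lies at the top right.

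At 48 h the groups were wider. Against vehicle, 6 of the 53 probe sets were higher and 0 lower, beside 38.3% of all probe sets called in either direction and 20.6% called higher. The members' median log2 change was 0.73, beside 0.04 over all probe sets tested. The 6 were Neb, Tnnt1, Myoz2, Mb, Myl2 and Tnnc1, of which 4 of the 7 slow isoform genes and 0 of the 12 fast ones; whether fast and slow genes differed in their change was not tested. Neb read 249, 441 and 238 at 48 h, against 54.2, 164 and 46.2 in vehicle tumours, with no overlap (log2 change 1.76 ± 0.38, SE, limma adjusted p = 0.00051). Neb was still high on replicate 4, where most members were near their lowest, and it read 49.8, 144 and 161 in resistant tumours at 160 mg/kg. Tnnt1 read 70.3, 309 and 58.0 at 48 h, against 73.4, 10.3 and 5.1 in vehicle tumours (log2 change 1.80, limma adjusted p = 0.010), so its groups overlapped. Mb read 335, 807 and 30.9 at 48 h, against 22.5, 142 and 6.8 in vehicle tumours (log2 change 2.20, limma adjusted p = 0.015). For Myoz2 the values were 36.9, 112 and 25.6 at 48 h, against 12.8, 22.9 and 2.3 in vehicle tumours (log2 change 1.26, limma adjusted p = 0.015). Ckm and Acta1 did not pass, at log2 changes of 1.35 and 1.83 (limma adjusted p 0.35 and 0.26).

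These 48 h counts and their split by fibre type turned on single arrays as well. Without 48 h replicate 4, which carried little muscle signal, 25 member probe sets were higher than in vehicle, and without vehicle replicate 2, 20 were. By lead probe set, 4 of the 12 fast and 5 of the 7 slow isoform genes passed without 48 h replicate 4, while 8 fast and 1 slow passed without vehicle replicate 2. Without 48 h replicate 3, 1 remained called, and without vehicle replicate 3, 2 were called. Among the 6 genes called, Neb passed under every such omission. These counts too are given without the share of all probe sets called.

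Between 48 h and 24 h, 5 member probe sets were lower at 48 h and 0 higher, beside 20.5% of all probe sets called in either direction and 10.8% called lower. They were Myh4 with both of its probe sets, Eno3, and 2 of the lesser probe sets of Ttn. Myh4 fell by 4.03 ± 1.30 on the log2 scale (SE, limma adjusted p = 0.030), from its lead probe set, with every 48 h array below every 24 h array. Its other probe set read 2.5, 7.2 and 6.9 at 48 h, against 34.9, 40.5 and 28.1 at 24 h. Eno3 read 203, 424 and 83.6 at 48 h, against 381, 564 and 469 at 24 h, and fell by 1.18 ± 0.39 on the log2 scale (SE, limma adjusted p = 0.033). None of the other 11 genes given with every array passed: their log2 changes lay between -2.49 for Myh1 and -0.31 for Tnni1, with limma adjusted p from 0.067 for Pygm to 0.81 for Tnni1. The log2 change of Pygm was -1.49. Those of Tnnc2, Atp2a1, Ckm, Acta1, Mylpf, Myl2, Tnnc1 and Ldb3 were, in this order, -2.26, -2.15, -1.89, -1.88, -1.39, -1.11, -0.97 and -0.40. Leaving out 1 array at a time, again without a share over all probe sets beside it, gave between 0 and 17 calls, the 17 without 48 h replicate 3. The call of Myh4 held only without that array and was lost without any of the other 5 (limma adjusted p 0.054 to 0.14), and that of Eno3 was lost without any of 4 (0.074 to 0.28).

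In the first hours of drug the muscle genes showed no call. At 4 h against the 4 h vehicle, 0 of 53 passed in limma, 1 at an unadjusted p under 0.05, beside 0.285% of all probe sets called. Acta1 changed by -0.20 and Ckm by -0.60 (limma adjusted p 0.99 and 0.98). At 8 h against the 4 h vehicle, 0 of 53 passed and 0 had an unadjusted p under 0.05, beside 3.25% of all probe sets called. Acta1 changed by -0.32 and Ckm by -0.49 (limma adjusted p 0.96 and 0.93). Between the 4 h vehicle and the vehicle with no time given, 0 of 53 passed and 0 had an unadjusted p under 0.05, beside 0.123% called over all. There Acta1 and Ckm changed by 1.24 and 0.69 (limma adjusted p 0.88 and 0.94), and the untimed vehicle group alone spanned 11.3 to 649.9 for Ckm.

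In resistant tumours a single member differed from vehicle. At 40 mg/kg, 1 of 53 member probe sets was higher than in vehicle and 0 lower, beside 7.11% of all probe sets called, and the members' median log2 change was -0.22. That gene, Cacna1s, read 292, 119 and 192 in resistant tumours at 40 mg/kg, against 16.6, 28.0 and 38.6 in vehicle tumours, and its signal was between 2.9 and 53.7 on every array outside the 40 mg/kg resistant group. The groups did not overlap, and the log2 change was 2.26 ± 0.37 (SE, limma adjusted p = 0.00050). Leaving out any 1 of the 6 arrays left Cacna1s called. Resistant replicates 2 and 3 at 40 mg/kg had high Cacna1s with Ckm at 8.8 and 26.3 and Acta1 at 46.5 and 65.2, while on replicate 1, where Cacna1s was highest, Ckm was 442 and Acta1 761. The lead probe set of Ldb3, at 134 on replicate 3, was also high there. Of its other probe sets 1 read 3.8 there, and the other read 57.6, its highest value in the series. Ckm and Acta1 changed by -0.14 and -0.48 in this comparison (limma adjusted p 0.97 and 0.89).

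At 160 mg/kg against vehicle, 0 of 53 passed in limma, 1 at an unadjusted p under 0.05, beside 1.01% of all probe sets called, and Acta1 and Ckm changed by -0.11 and -0.42 (limma adjusted p 0.98 and 0.91). Between the resistant doses, 2 of 53 were lower at 160 mg/kg and 0 higher, beside 2.13% of all probe sets called. Cacna1s read 2.9, 3.1 and 27.0 at 160 mg/kg, against 292, 119 and 192 at 40 mg/kg, and fell by 3.04 ± 0.37 on the log2 scale (SE, limma adjusted p = 3.1e-05). Ldb3 read 23.6, 39.3 and 26.1 at 160 mg/kg, against 147, 46.6 and 134 at 40 mg/kg, and fell by 1.35 ± 0.36 (SE, limma adjusted p = 0.047), a call lost without any 1 of 5 of the 6 arrays. Acta1 and Ckm changed by 0.37 and -0.28 (limma adjusted p 0.95 and 0.96).

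Most members varied together from array to array. Over the 23 arrays, which share groups and scaling, the Pearson r of a lead probe set with the mean of the other members had a median of 0.88, beside a median of 0.058 for all single-symbol probe sets against the members' mean, and 24 of the 37 exceeded 0.8. Titin had the highest, at 0.98, followed by Ryr1, Acta1 and Myl1 at 0.96. Slow isoform genes came lower, with Tnnc1 at 0.79, Myl2 at 0.73, Tnni1 at 0.71, Tnnt1 at 0.69 and Myl3 at 0.65. Casq2 at 0.29, Mylk2 at 0.10 and Cacna1s at -0.05 did not follow the rest. Among non-members, the 10 closest were Tpm2 (a tropomyosin, r = 0.98), Myot (a Z disc protein), Myom2 (an M band protein), Klhl41, Mybpc1 (the slow myosin-binding protein C), Apobec2, Pdlim5, Myhas, Trdn (triadin of the calcium release complex) and Smpx, the last at 0.92.

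Of 37 tested genes on a list of other adult muscle genes, none of them members, 14 were higher and 0 lower at 24 h, with a median log2 change of 1.06, beside 16.6% of all probe sets called higher. At 48 h 7 were higher and 2 lower, a share near the 20.6% of all probe sets called higher. Myh7, the slow heavy chain, was among those that rose at 24 h, reading 523, 94.4 and 622 at 24 h, against 7.4, 47.8 and 13.4 in vehicle tumours. Of 10 tested regulators and developmental genes, 1 was higher at 24 h, Myh8, the perinatal heavy chain. At 48 h Myh8 was higher and Myod1, the muscle determination factor, lower. Myh3, the embryonic heavy chain, reached 402 and Myl4, an embryonic light chain, 447 on 48 h replicate 3, the highest values of both genes in the series. Heart markers stayed low: of 7 with a probe set 3 passed the filter and 0 were called at 24 h, and their summed signal was 112.8 to 140.1 at 24 h, against 67.2 to 114.3 in vehicle tumours.

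Markers of several other host tissues were also higher at 24 h, and their part in the muscle result was not tested. Beside the counts below, 16.6% of all probe sets tested were called higher at 24 h and 20.6% at 48 h. Fibroblast and matrix genes rose for 7 of 7, with a summed signal of 16943 to 23193 at 24 h, against 2874 to 7789.9 in vehicle tumours. Of the macrophage genes 3 of 6 rose (2069.6 to 3481 at 24 h, against 895 to 1564 in vehicle tumours). Of the endothelial genes 2 of 6 rose (712 to 874, against 357 to 591) and of the smooth muscle genes 3 of 5 (2148 to 3009, against 1045 to 1264). Adipocyte genes rose for 2 of 7, Cd36 and Fabp4 (785 to 2629, against 203 to 345). Adipoq and Retn were called higher against vehicle at 48 h but not at 24 h. Skin keratinocyte genes did not rise, with 0 of 7 higher and 1 lower (318 to 347, against 452 to 617). The sums include genes that were not tested, and so cover 8 adipocyte, 6 smooth muscle and 10 skin genes. Vehicle replicate 2, with high muscle signal, had summed signals for matrix and macrophage genes of 7789.9 and 1564. Both were the highest of the vehicle arrays and below every 24 h array. At 48 h the matrix genes rose for 7 of 7 and the macrophage genes for 6 of 6 against vehicle, and replicate 4, with little muscle signal, had the highest sums of both among the 48 h arrays, 44735 and 18738. As a gauge of how intact the RNA was, actin probe sets at the 3′ end were set against those at the 5′ end, and this ratio was higher at 24 h (log2 1.65 ± 0.22, against 1.04 ± 0.04 in vehicle tumours, SD, n = 3 each), and it was 0.84 on 48 h replicate 3, where muscle signal was highest. Its part in the result was not tested.

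Probe sets of the same gene did not always follow each other. Of the 19 further probe sets of 11 members, 7 had an r above 0.8 with the lead, such as the second one of Myh1 at 0.99. Of the 56, 15 carry a name suffix that marks probes shared between transcripts, of the same gene or of others, and 9 of these are leads. The fast myosin heavy chains are closely related genes, so their probe sets may share signal, which was not tested. On 48 h replicate 1 the lead probe set of Myh4 read 1.2, with Myh1 at 1014 and Myh2 at 462.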

How the data were processed

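The deposited values are MAS5 signal intensity per probe set, 1 column per array, produced by the authors with MAS5 per the submitters' processing notes, whose version is not given in the sources used here. Per the values, each array had been scaled to a 2% trimmed mean of 150.0. The design text names the 430A 2.0 array, while the table holds 45101 probe sets. Depth has no counterpart on arrays; the number of arrays limits precision. Groups came from the sample descriptions. Gene symbols came from the platform annotation, which can be old: 34958 probe sets had 1 symbol, 932 several and 9211 none.

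After leaving out 64 control probe sets and those that exceeded the 40th percentile of their array on fewer than 2 arrays, 35069 remained, 53 of the 56 members' probe sets among them. A member can pass through the group where it is high. limma 3.58.1 (lmFit and eBayes with trend, R 4.3.3) was fitted to log2(signal + 16) with all 8 groups, 15 residual degrees of freedom, two-sided, Benjamini-Hochberg adjusted over all tested probe sets within each of 9 comparisons, threshold 0.05. The offset of 16 understates changes of low genes. Comparisons share control arrays. Tables and figures used pandas 2.3.3 and matplotlib 3.10.9. The procedure was tested on simulated data. Members and gene lists were chosen with earlier results of these data known. Of the members, 12 are given on every array, with tests at 24 h against vehicle and 48 h against 24 h. Members called elsewhere are named, up to the 4 with the smallest p with values, and Ckm and Acta1 are tested in every comparison. Genes with an unusual array pattern named beyond this, such as Myh2 and Neb, were chosen after their values were seen. Alternatives varied the offset, filter, normalization, moderation, arrays in the fit, blocks, controls and single arrays.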

Additional observations from a re-analysis of the deposited data

Results flagged for a closer look

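Several members differed between drug groups by the test of the difference itself, with limma on log2(signal + 16). Between the resistant doses 3.77% of member probe sets were called, beside 2.13% of all probe sets tested. Between 48 h and 24 h it was 9.43%, beside 20.5% of all, so these calls do not set the muscle genes as a group apart. Between resistant tumours at 160 mg/kg and at 40 mg/kg, Cacna1s had a log2 change of -3.04 and the lead probe set of Ldb3 of -1.35. The other probe sets of Ldb3 were not called there. Between 48 h and 24 h of drug, the lead probe set of Myh4 had a log2 change of -4.03 and its other probe set of -1.23. In the same comparison Eno3 changed by -1.18, and 2 of the lesser Ttn probe sets by -0.91 and -1.07. Leaving out 1 array ended the call of the lead probe set of Myh4 for 5 of the 6 arrays, of Eno3 for 4 of 6, and of Ldb3 for 5 of 6. No group has more than 3 arrays, so single outlying arrays were described in the text and not tested.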

How the results depend on the processing

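Under the alternatives run, 105 counts of called members stayed within 1.5 times of the reported count and 35 did not. A count of 0 that remained 0 was scored as staying. The reported count was 0 at 4 h, at 8 h, for resistant 160 mg/kg against vehicle and between the vehicle groups. The 105 is therefore no measure of stability for the comparisons with calls. Of the log2 changes of named genes, 647 kept direction and side of the threshold, 106 lost the call, 14 gained it and 29 turned sign. The cause was not tested. Shares of all probe sets called under these alternatives are not given beside the counts. At 24 h against vehicle, 22 members were called with the run of identifier numbers in the titles as a block and 15 against the 4 h vehicle arrays, and leaving out 1 array gave 10 to 42. At 48 h against vehicle the count was 3 with only the compared arrays fitted, and 1 to 25 without 1 array. For 48 h against 24 h it was 3 with an offset of 1, 8 with an offset of 64, 2 without the trend, 2 with the identifier block, and 0 to 17 without 1 array. For resistant 40 mg/kg against vehicle it was 2 with all 5 vehicle arrays. For resistant 160 against 40 mg/kg it was 1 with an offset of 64, with no filter, without the trend, with only the compared arrays and with the identifier block, and 1 to 2 without 1 array.

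Genes with no call turned sign. The log2 change of Acta1 was 0.55 at 4 h and 0.43 at 8 h against all 5 vehicle arrays, and 0.07 at resistant 160 mg/kg with an offset of 1. Without 1 array, Acta1 ranged from -0.59 to 0.20 at 4 h, -0.75 to 0.16 at 8 h, -1.27 to 1.81 at resistant 160 mg/kg, -1.64 to 1.44 at resistant 40 mg/kg and -0.30 to 1.52 between those doses. Ckm ranged from -1.31 to 0.35 at 4 h, -1.26 to 1.05 at resistant 160 mg/kg, -1.42 to 1.33 at resistant 40 mg/kg, -1.11 to 1.00 between those doses and -0.14 to 2.16 between the vehicle groups. Tnni1 ranged from -1.46 to 0.47 at 48 h against 24 h.

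Replicate numbers did not pair the samples: the deviations of same-numbered arrays correlated between -0.104 and 0.077. With the replicate number as a block, the count was 39 at 24 h and 26 at 48 h against vehicle, 0 for 48 h against 24 h and 1 between the resistant doses. No array but 48 h replicate 4 carries the number 4, so this block takes that array out of both 48 h comparisons. The 48 h values of the block fit rest on replicates 1 and 3 and cannot be read as an effect of pairing. In that fit the log2 change of Mylpf was 0.09 and of Tnni1 0.33 for 48 h against 24 h, and of Acta1 0.07 at 4 h.

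Low signal limits several members: Tnni1 and Ampd1 exceeded the array's 40th percentile on 4 of 23 arrays, Myoz2 and Mylk2 on 7, Actn2 on 8 and Cacna1s on 9. A group left with 1 array was assumed to vary like the other groups.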

Other observations

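Some muscle genes outside the list had patterns of their own. Fbxo32, the ubiquitin ligase known from muscle wasting, was higher at 24 h and at 48 h, and on 48 h replicate 4, where most members were low, it still read 217. It had 57.9, 68.9 and 62.6 on the vehicle arrays, 275, 203 and 219 at 24 h, and 299.6, 276 and 217 at 48 h. Pvalb, parvalbumin, a calcium buffer of fast fibres and of some neurons, had a signal of 839 to 1179.6 on the vehicle arrays, 2300.3 to 2685 at 24 h and 1534 to 1601 at 48 h, replicate 4 included. In resistant tumours it read 742, 1206 and 1371 at 160 mg/kg and 763, 199 and 293 at 40 mg/kg, where it was lower than in vehicle tumours. Mybpc2, the fast myosin-binding protein C, read 4.6, 71.2 and 13.4 at 48 h, against 144, 296 and 143 at 24 h, and like Myh4 it was lower at 48 h. Sln, the inhibitor of the calcium pump, reached 390.2 on 48 h replicate 3 and 213 on 24 h replicate 3, and was 12.7 on 24 h replicate 2.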
